A study of Mus musculus with 62 samples.

Results

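This is a description of 35 genes of DNA replication and S phase, read one by one in single KPC1199-EGFP cells, a mouse pancreatic cancer line. The genes were chosen by symbol, from the helicase subunits Mcm2 to Mcm7 through to the transcription factor E2f8, and all 35 had a row among the 19112 genes of the count table. The cells carried EGFP, had a C57BL\6 strain background and came from 1 untreated adherent culture at passage 9, grown in DMEM with 10% serum and trypsinised before capture on the Fluidigm C1. The labels give 62 libraries, each of 1 cell. Synthetic ERCC spike-in RNA took less than 20% of the counts in 50 of them, and the genes are described over these 50. There is 1 group and 1 culture, so no condition is compared, no p-value is given, and every SD is a spread over cells.

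Replication is prepared in G1, when the MCM ring, the core of the replicative helicase, is loaded at origins with the help of Cdc6. At the start of S phase Cdc45 and the GINS complex join the ring and make it an active helicase. Behind it, primase and polymerase alpha begin the new strands, and the clamp Pcna, loaded by the RFC complex, holds the later polymerases on DNA. Cells raise many of these transcripts before and during S phase through E2F transcription factors.

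Libraries differed in depth and content. In the 50 low-spike-in libraries the genes together received between 2153900 and 12868800 estimated counts per library, and 6832 to 11068 genes were detected. At the lowest of these depths 1 CPM (counts scaled to the sum of all gene rows of a library) is about 2 counts. Libraries 17, 19 and 11 stood apart, with 6, 7 and 13 of the 35 genes at 10 CPM or more where the other 47 had 17 to 35, so results that rest on them are given with and without them. Of the 7 epithelial markers measured, 6 were at 10 CPM or more in at least 50% of the libraries, with Epcam the exception (16 of 50). Markers of other cells were sparse: the summed level of 7 immune markers had a median of 0.137 CPM and a highest value of 33.5 CPM, and 4 of them (Lyz2, Adgre1, Cd3e and Csf1r) were at 0 in every library. The 7 fibroblast markers reached a sum of 75 CPM, with 4 at 0 throughout. Of 5 endothelial markers 4 were at 0 throughout, and the fifth, Egfl7, was on in 15 libraries. Among 4 acinar markers 2 were at 0 throughout, and the highest sum was 97.4 CPM. Cells of 1 culture share preparation and medium, and no doublet caller was run.

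Promoter sequence is given first, as a description. Windows from RefSeq (build GRCm38.p6), running from 250 bases before to 50 bases after each start, matched 27 of the 35 symbols. Each was searched on both strands for 3 forms of the E2F recognition sequence, which can overlap each other. One is the word TTCGCGC. Another form, with a different middle, is TTGGCGC. The last of the forms searched is TTCCCGC. At least 1 word was found for 18 of 27 genes (66.7%), in any of a gene's windows. One was present in 8.07% of all 32851 windows, and for 17.1% of the 8849 genes that passed the detection filter and had a window. The word CCAAT, read by NF-Y, was in 19 of 27 genes (70.4%), for 43.5% of the 8849 genes and in 37.4% of all windows. For TTTGAA or its variant with a central CG, TTCGAA, the element of late cell cycle promoters called CHR, the figures were 7 of 27 (25.9%), 16.8% and 19.2%. Within 150 bases before the start, 14 of 27 genes (51.9%) held an E2F word, against 10.2% of the 8849 genes and 4.67% of all windows. A gene can have several windows, so the share over genes is the like comparison.

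The 6 stretches printed here are the 150 bases before the start, 5′ to 3′ on the gene's strand, for 4 genes with E2F words and for 2 genes that were at 10 CPM or more in every library and whose windows held none. Capitals mark E2F words.
Mcm6 (chr1:128359706-128359855, minus strand): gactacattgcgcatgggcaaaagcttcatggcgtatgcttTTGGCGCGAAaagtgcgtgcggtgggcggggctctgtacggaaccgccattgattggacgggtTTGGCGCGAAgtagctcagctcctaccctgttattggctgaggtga
Hells (chr19:38930840-38930989, plus strand): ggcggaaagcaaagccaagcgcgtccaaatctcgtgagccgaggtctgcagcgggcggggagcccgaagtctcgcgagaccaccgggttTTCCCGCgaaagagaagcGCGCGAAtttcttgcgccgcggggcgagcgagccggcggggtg
Pola1 (chrX:93632156-93632305, minus strand): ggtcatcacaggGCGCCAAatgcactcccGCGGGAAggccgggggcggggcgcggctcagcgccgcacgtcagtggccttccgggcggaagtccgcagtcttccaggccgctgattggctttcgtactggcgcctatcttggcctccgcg
Dtl (chr1:191575545-191575694, minus strand): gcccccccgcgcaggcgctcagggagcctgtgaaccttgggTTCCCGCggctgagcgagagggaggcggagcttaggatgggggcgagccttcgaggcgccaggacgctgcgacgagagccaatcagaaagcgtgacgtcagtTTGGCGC
Pcna (chr2:132253181-132253330, minus strand): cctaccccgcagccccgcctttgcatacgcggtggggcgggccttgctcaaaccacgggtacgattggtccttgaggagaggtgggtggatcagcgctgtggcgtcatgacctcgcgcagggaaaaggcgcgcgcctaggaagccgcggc
Slbp (chr5:33652575-33652724, minus strand): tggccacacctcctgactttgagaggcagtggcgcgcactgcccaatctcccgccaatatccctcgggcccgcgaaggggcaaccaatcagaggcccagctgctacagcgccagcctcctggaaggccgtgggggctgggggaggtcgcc
In Mcm6 the 4 matches form 2 runs of capitals, since words on opposite strands overlap there. Their first bases lie at -109, -106, -46 and -43 from the start. Hells carries its words at -61 and -43, Pola1 at -138 and -121, and Dtl at -109 and -7. The constant genes Pcna, Slbp and Tyms held none of the 3 words in the full window (0 of 3), while one was held by 8 of 10 matched genes that split cells into on and off, 9 of 11 mixed genes, 1 of 2 graded genes and 0 of 1 mostly off. A match is a description of letters, and its absence says only that these exact letters are not in the window. Whether these words go with a gene's class or with shared movement across cells was not tested.

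Each gene was placed in a class by its level over the 50 libraries. A library was called off for a gene under 1 CPM, on at 10 CPM or more, and low in between. A gene split the cells when at least 5 libraries were off, at least 5 were on, and the low ones were fewer than either. Genes on in at least 95% of the libraries were constant when the SD of log2(CPM + 1) was under 1 and graded otherwise. Of the 35 replication genes, 12 split the cells (34.3%), against 44.7% of the 12012 genes detected in at least 10 libraries. Another 3 were constant (8.57%, against 11.2%), 5 were graded (14.3%, against 6.49%), 14 were mixed (40%, against 21.8%) and 1 was mostly off (2.86%, against 15.7%). All 35 passed the detection filter. At these limits the shares of split and constant genes were both below those of all genes, and the shares of graded and mixed genes above. The first 2 of these orders turn with the setting: with an on limit of 20 CPM 28.6% of the 35 genes were split against 23.5% of all, over all 62 libraries 91.4% against 71.4%, and without libraries 11, 17 and 19 22.9% were constant against 13.2%.

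On in at least 95% of libraries were 8 of 35 genes (22.9%, against 17.7% of all genes), and 4 of 35 had no library off (11.4%, against 14.5%). Classes depend on level. Among genes with a mean level of 4 to 7 on the log2(CPM + 1) scale, a range chosen after the values were seen, 10 of 22 replication genes and 35.6% of all genes split the cells. At a mean of 8 or more, 3 of 4 replication genes and 91.1% of all genes were constant, and the exception was Rrm2. A library that is off may lack the transcript or may have failed to capture it, and these cannot be told apart here.

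**Figure D1:**
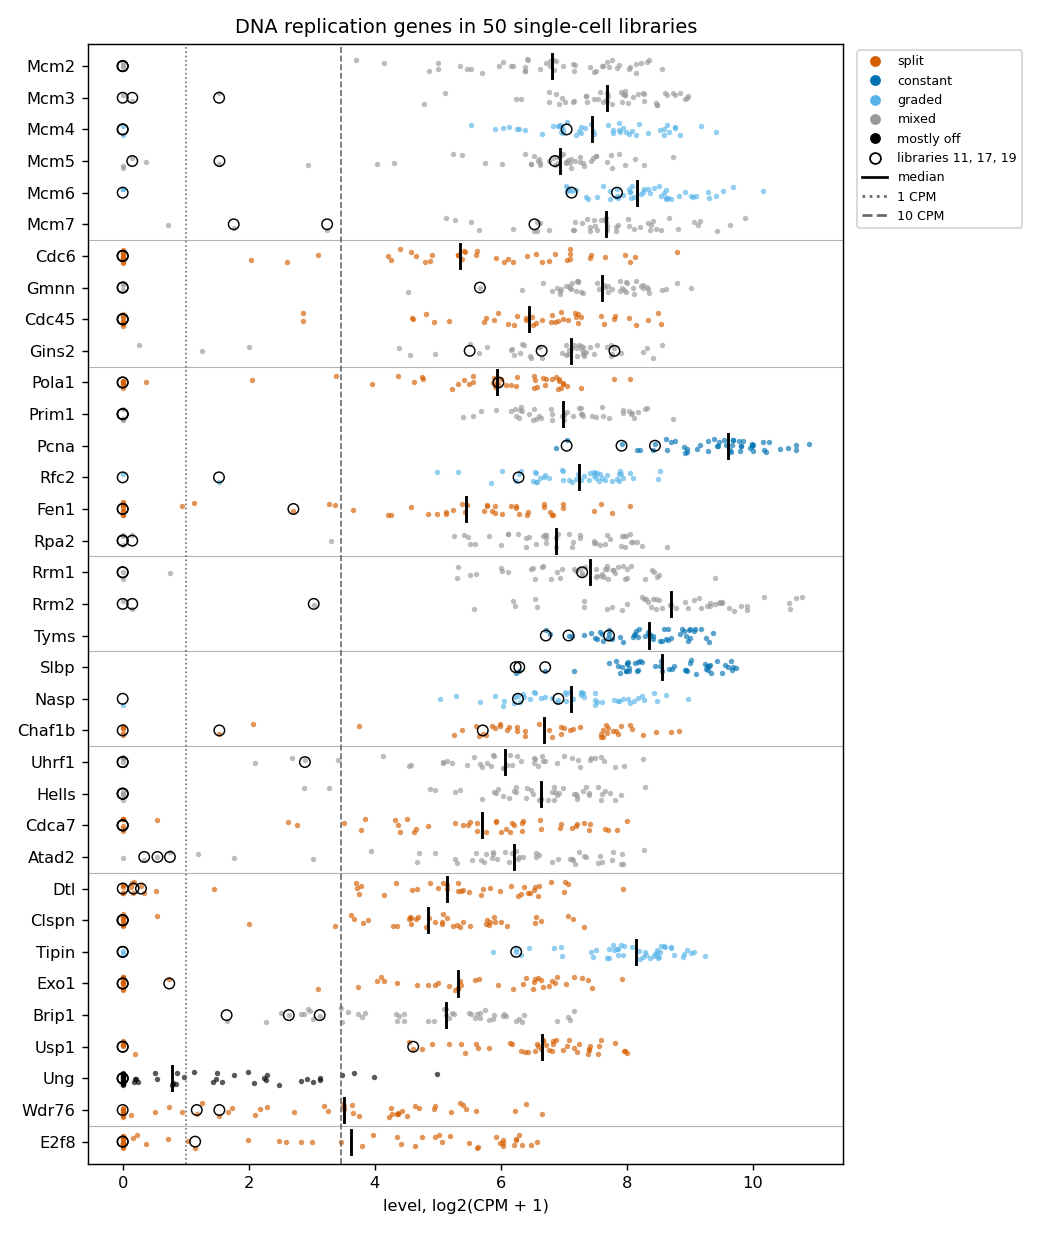
Level of each of the 35 genes as log2(CPM + 1) on the x axis, 1 point per library (50 libraries), coloured by class, with the median as a black bar, libraries 11, 17 and 19 ringed and the off and on limits as vertical lines. Pcna, Tyms and Slbp stay to the right of the 10 CPM line in all 50 libraries, while Cdc6, Exo1 and E2f8 show a column of points at 0 beside a broad cloud.

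The MCM subunits had a few empty libraries beside a main body of cells that differed in width, with an SD over the libraries at 10 CPM or more from 0.75 (Mcm6) to 1.15 (Mcm2) on the log2 scale. Mcm6 was at 0 CPM in 2 libraries, and its next lowest value was 130 CPM, with a median of 286 and a highest of 1142. No library fell between 0 and 130 CPM, so its 2 low libraries stood clear of the other 48. Mcm4 was at 0 in 2 libraries and between 44.9 and 685 CPM in the other 48, with a median of 174. Mcm2 was off in 3 libraries, all at 0 CPM, and ran from 12.1 to 376 CPM in the 47 others. Mcm3 was off in 2 and on in 47, with a median of 206 CPM, and Mcm7 was off in 1 and on in 47, with a median of 202. Mcm5 differed from its partners in having 4 libraries off and 2 low. It was at 0 in libraries 6 and 32, in which Mcm6 stood at 134 and 374 CPM.

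Loading and activation factors were less even. Cdc6, the loader of the MCM ring, was off in 12 libraries, low in 3 and on in 35, with a lowest value of 0, a median of 39.7 and a highest of 446 CPM. Cdc45, which joins the ring to activate it, was off in 9 and on in 39, with a median of 86.5 CPM. Both therefore split the cells. Gins2, a subunit of GINS, was on in 47 of 50 libraries at a median of 137 CPM, and off in library 32 alone. Gmnn, which encodes geminin, the inhibitor of the loading factor Cdt1, was on in 47 and at 0 in 3, with no library between 0 and 22.1 CPM.

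Among polymerase and clamp genes the clamp stood apart. Pcna was on in all 50 libraries, from 116 to 1894 CPM with a median of 781, or 9.41 ± 0.86 (SD, n = 50) on the log2(CPM + 1) scale. Rfc2, a subunit of the clamp loader, was graded: on in 48 libraries with a median of 151 CPM and off in 1. Pola1, the catalytic subunit of polymerase alpha, split the cells with 8 libraries off and 40 on, while its primase partner Prim1 was on in 46 and at 0 in the other 4. Prim1 had no value between 0 and 41.4 CPM. Fen1, the flap nuclease of Okazaki fragment processing, was off in 10, low in 4 and on in 36. Rpa2, of the single-strand binding complex, was off in 4 and on in 45 at a median of 117 CPM.

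Nucleotide supply genes were nearly always on. Tyms, thymidylate synthase, had the smallest spread of the 35, at 8.26 ± 0.68 (SD, n = 50), and lay between 104 and 662 CPM. None of its estimated counts was a whole number (within 1e-06), as happens where reads fit several transcripts, so its level is less certain. The same holds for Mcm5, of whose values 4.17% were whole, and for Dtl (6.67%). Rrm2, the regulated subunit of ribonucleotide reductase, had a wider range. It was off in 2 libraries, low in 1 and otherwise ran from 46.8 to 1753 CPM, with a median of 413. Its partner Rrm1 was off in 3 and on in 47 with a median of 170 CPM. Library 19 shows that the 2 subunits could part, with Rrm1 at 7.29 and Rrm2 at 0.00 on the log2 scale.

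The 3 histone supply genes fell in 3 different classes: constant, graded and split. Slbp, which binds the stem-loop of replication-dependent histone mRNA, was on everywhere, from 74.4 to 850 CPM with a median of 374 (8.54 ± 0.85, SD, n = 50). Nasp, a histone chaperone, was on in 49 of 50 libraries at a median of 138 CPM and was at 0 in library 19. Chaf1b, a subunit of the chromatin assembly factor CAF-1, split the cells with 5 off, 2 low and 43 on.

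Genes of chromatin and DNA methylation were mostly on with a tail. Uhrf1, which brings the maintenance methyltransferase to new DNA, was on in 42 libraries, low in 4 and off in 4. Hells, a chromatin remodeller, was on in 44 at a median of 98.6 CPM. Its partner Cdca7 split the cells, with 7 off and 41 on. Atad2, an ATPase with a bromodomain, was on in 43 and off in 4. None of its values was whole, and none of those of Brip1.

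Fork protection, checkpoint and repair genes held members often empty beside steady ones, and contained the lowest gene of the set. Tipin, the partner of Timeless at forks, was on in 48 libraries at a median of 281 CPM, had nothing between 0 and 57.7 CPM and was at 0 in 2. Usp1, which removes ubiquitin from Pcna, was on in 44 and off in 6 with no library in between. Clspn, the checkpoint adaptor claspin, was off in 10 and on in 38. Exo1, an exonuclease, and Dtl, the substrate receptor of a ubiquitin ligase that acts on Cdt1, were each off in 12 and on in 37, with medians of 38.8 and 34.4 CPM. Brip1, a helicase, was off in no library and low in 11, from 2.14 to 142 CPM, a continuous range with no empty class. Wdr76 was off in 13, low in 11 and on in 26. Ung, the uracil glycosylase, had reads in 32 of 50 libraries (64%, exact Clopper-Pearson interval 49.2 to 77.1%) but reached 10 CPM in 4, with a highest value of 30.6 CPM. E2f8, an atypical E2F that represses transcription, was divided most evenly of the 12 split genes: 17 libraries off, 7 low and 26 on, with a median of 11.4 and a highest value of 94.3 CPM. Of its values above 0, 2.70% were whole.

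Levels of different genes can be compared only per length. Dividing by the longest protein-coding transcript of GENCODE M21, the median level was highest for Pcna at 514 CPM per kb, followed by Slbp at 196, Rrm2 at 188, Gmnn at 172 and Tipin at 153. Tyms followed at 102. The 5 lowest medians per kb were those of Brip1 at 4.92, E2f8 at 3.10, Wdr76 at 2.48, Ung at 0.34 and, above them, Exo1 at 4.98 CPM per kb. The MCM subunits lay between 32.9 (Mcm2) and 68.0 (Mcm7). The SD of log2(CPM + 1) over cells was 1.97 for Mcm2 and 1.76 for Mcm7, and differences between the subunits were not tested. Which transcripts the authors counted is not known here, so these lengths are approximate.

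Spread was then set against that of other genes at the same mean level, as the distance from a smooth trend of the squared coefficient of variation of CPM (taken as log2) on mean level. Of the 35 genes 32 lay above the midpoint of all 12012 genes, with a median percentile of 78.4, and 7 lay above the 90th. Rrm2 had the highest percentile at 98.8, followed by Mcm7 at 97.0 and Pcna at 95.9. Pcna was therefore constant by its class, with no library under 116 CPM, and yet varied more than most genes of its level. Rfc2 at 47.7, E2f8 at 39 and Ung at 18.3 were the 3 below the midpoint.

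Part of the empty values of these genes fell in the same 3 cells. Of 1750 gene and library values 197 were off (11.3%), and 64 of these lay in libraries 17, 19 and 11, where they made up 61% of all values. The 3 libraries were picked for having the fewest of the 35 genes on, so many off values there follow from the choice. Off values of all other genes in them were not counted, so the counts below have no background share beside them. Library 17 had 6 of the 35 genes on and 26 off, library 19 had 7 on and 23 off, and library 11 had 13 on and 15 off. Over the other 47 libraries the number on ranged from 17 to 35 with a median of 32. Off in all 3 libraries were 12 genes, among them Mcm2, Cdc6, Cdc45, Prim1, Rpa2, Hells, Cdca7, Atad2 and Clspn. Off in none of them were 6 genes: Pcna, Tyms, Slbp, Gins2, Brip1 and Mcm7. For 7 genes, namely Mcm2, Mcm3, Mcm4, Rrm2, Rfc2, Nasp and Tipin, these libraries held every off value.

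Those 3 libraries were not shallow in gene counts. They had 9022880, 8966780 and 7943580 gene counts for libraries 17, 19 and 11, where the median of the 50 was 7194660. Their spike-in shares were 1.6%, 1.51% and 0.769%, against a median of 0.649% within a range of 0.190% to 1.83%. They had 6935, 7436 and 8568 genes detected, against a median of 8830.5 and a lowest of 6832. What part RNA content had in the low values of these 3 libraries was not tested. The 35 genes together took 0.0576%, 0.109% and 0.158% of gene counts there, and 0.238% to 1.07% in the other 47. Mitosis genes were low in the same libraries, with 4, 3 and 10 of 20 on, against a median of 19. Low mitosis counts were not confined to them: libraries 29 and 46 had 8 of 20 on, with 29 and 34 of the 35 replication genes on. Epithelial markers went both ways on the log2(CPM + 1) scale. Krt19 stood at 13.50, 11.45 and 12.15 in libraries 17, 19 and 11, and at 10.87 ± 0.92 (SD, n = 50) over all. In library 19 Krt8 (10.04 against 10.99 ± 0.72), Krt18 (10.19 against 11.11 ± 0.63) and Cdh1 (3.66 against 6.33 ± 1.31) were more than 1 SD below the mean. In libraries 17 and 11 the same genes were above it, with Krt8 at 12.42 and 11.94, Krt18 at 12.48 and 11.30 and Cdh1 at 7.55 and 8.23. The epithelial marker sum of library 17, 25164 CPM, was the highest of the 50. Immune markers summed to at most 0.756 CPM in these 3 libraries. The endothelial marker sum was 42.2 CPM in library 17, all of it Egfl7, and 0 in the other two; the part of such RNA in the low values was not tested. In the plot of genes by library they are the 3 columns at the left. After library 11 the next fewest were libraries 32, 55 and 6, with 17, 20 and 21 genes on and 16, 12 and 13 off.

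**Figure D2:**
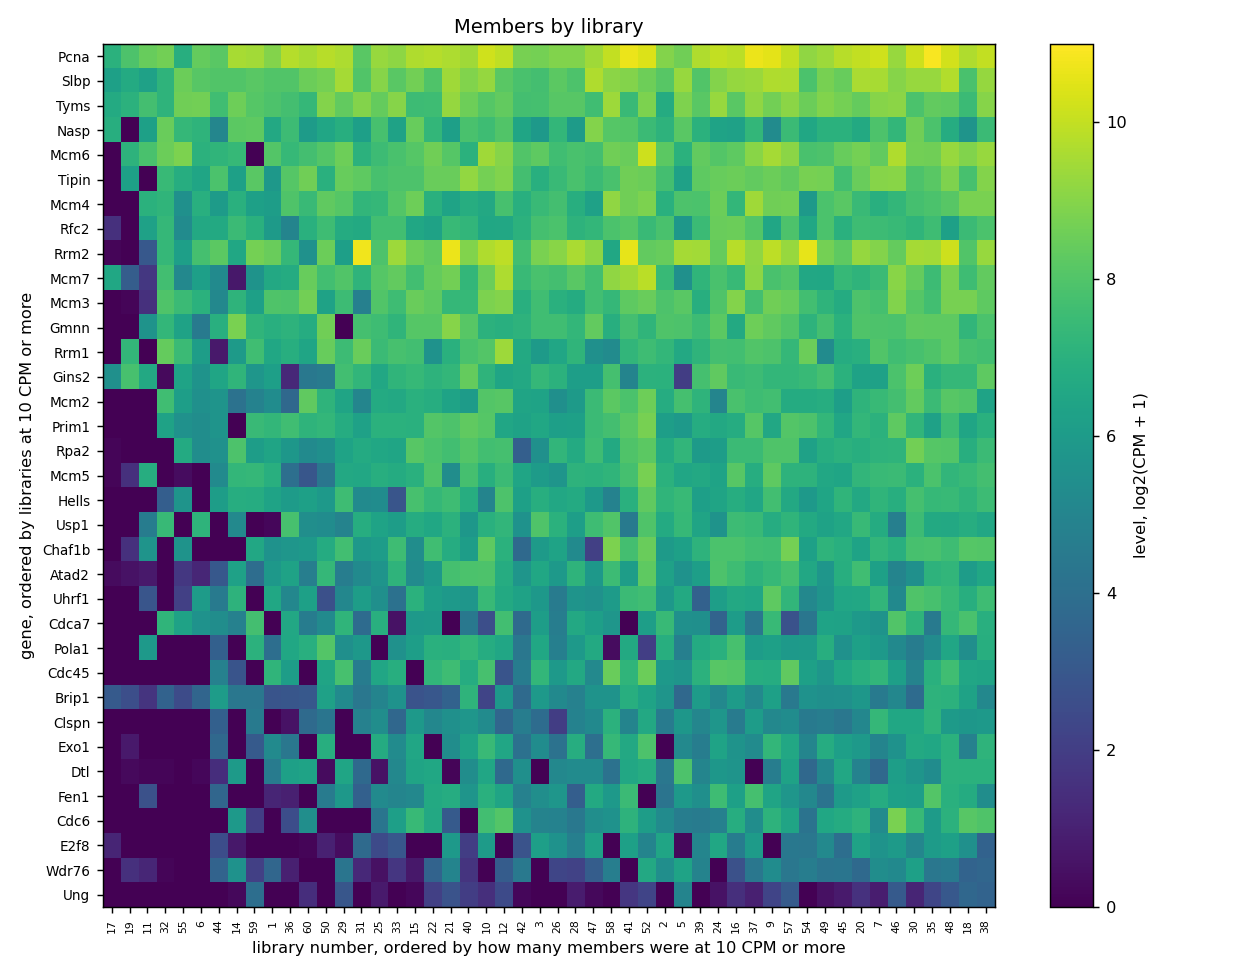
Level of each gene (rows, ordered by how many libraries are on) in each of the 50 libraries (columns, ordered by how many of the 35 genes are on), as log2(CPM + 1) from dark purple (0) to yellow (11). Libraries 17, 19 and 11 are dark across most rows, with 6, 7 and 13 genes on, while the Pcna, Slbp and Tyms rows stay bright throughout.

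Without these 3 libraries, a setting chosen after the values were seen, 8 genes were constant in place of 3. Mcm3, Mcm4, Nasp, Rfc2 and Tipin joined Pcna, Slbp and Tyms, so over the 47 other libraries 5 more genes had an SD under 1. The share of all genes called constant moved from 11.2% to 13.2%. Split genes numbered 9 (25.7%, against 42.2% of all genes): Cdc6, Cdc45, Pola1, Fen1, Dtl, Clspn, Exo1, Wdr76 and E2f8. The last of these was off in 15 of its 17 off libraries outside the 3.

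Off libraries of some split genes also coincided outside the 3. Over the 66 pairs of split genes the number of such libraries off for both ranged from 0 to 7, with a median of 3. The 5 pairs with none were those of Cdca7 with Cdc45, Exo1, Fen1, Pola1 and Chaf1b. The pairs given next are among those with most libraries in common, and a long list such as that of E2f8 has more libraries to share. Clspn was off in 10 libraries and E2f8 in 17, and 9 were off for both, which is 90% of the Clspn list and 52.9% of the E2f8 list. Outside libraries 11, 17 and 19, 7 of these remained. Exo1 shared 9 of its 12 off libraries with E2f8 (75%, and 52.9% of the E2f8 list). Cdc6 and Clspn shared 8, or 66.7% and 80% of their lists. These overlaps describe the same 50 cells and carry no test. The overlap between split genes outside the set was not counted, so no background stands beside them.

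Pairs of the 35 genes rose and fell together in most cases. Over 595 pairs, Pearson r of log2(CPM + 1) across the 50 libraries had a mean of 0.448 and a range from -0.202 to 0.878, and 591 pairs were above 0. Over all pairs of the 12012 genes the mean was 0.0230, and 40393664 of 72138066 pairs were above 0. An r of 0.5 or more was found for 39.7% of the pairs and for 0.152% of all gene pairs. The closest pairs were Mcm2 with Mcm3 (r = 0.878, n = 50), Mcm4 with Rfc2 (0.835) and Cdc45 with Atad2 (0.828). The points share culture and preparation, so these values are descriptions. The lowest r was that of Gins2 with Nasp, at -0.202.

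**Figure D3:**
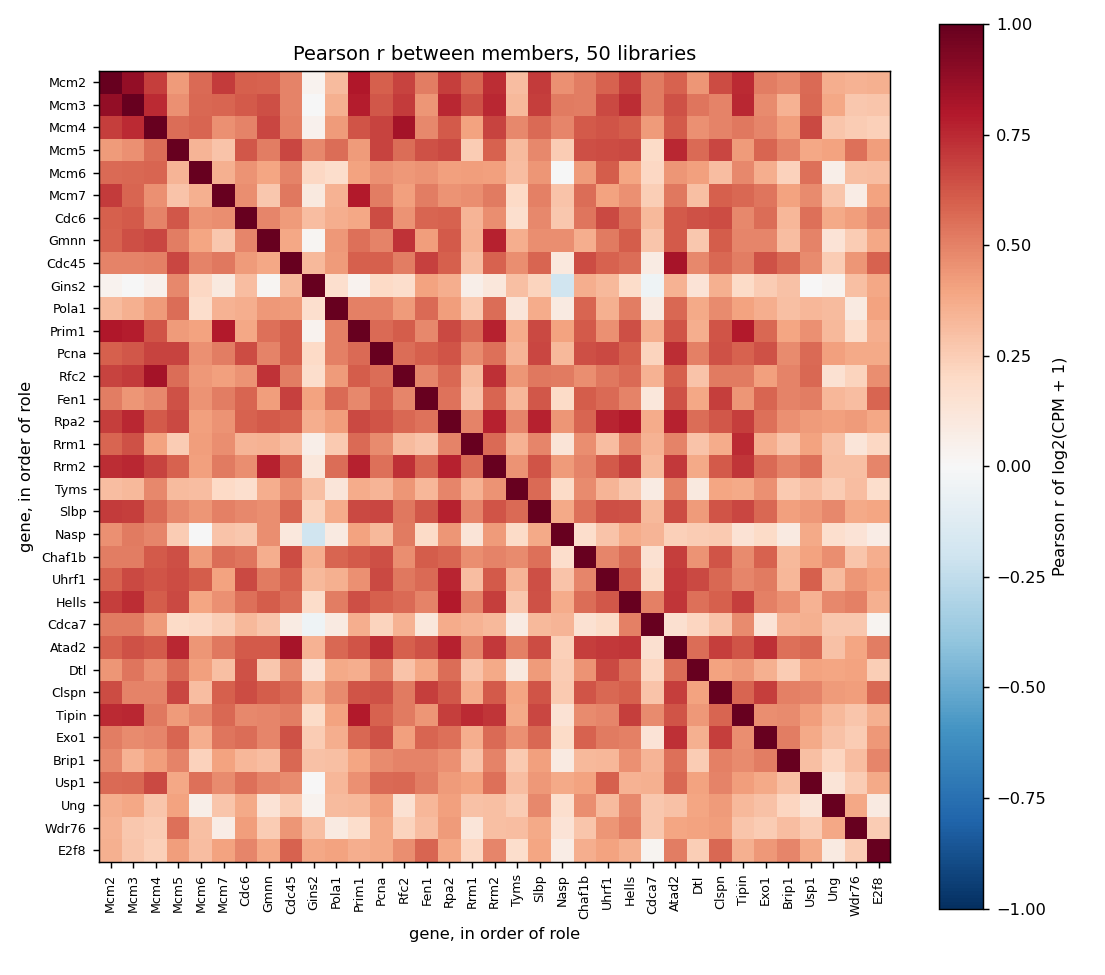
Pearson r of log2(CPM + 1) over 50 libraries for each pair of the 35 genes, in order of role on both axes, from blue (-1) through white (0) to red (1). Nearly all squares are red, Mcm2 with Mcm3 is the darkest off the diagonal at 0.878, and the palest bands are Gins2, Nasp and Cdca7.

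Much of that shared movement lay in the same 3 cells. They were picked for having the fewest of the 35 genes on, so some fall in r without them, here and below, follows from the choice. No such choice was made on the values of all gene pairs, so their change is not a like comparison. Without libraries 11, 17 and 19 the mean r over pairs was 0.278, with 543 of 595 above 0 and 13.4% at 0.5 or more. Over all gene pairs the mean was 0.0184, with 39512014 of 72138066 above 0 and 0.125% at 0.5 or more. Mcm2 with Mcm3 fell to 0.571 and Mcm4 with Rfc2 to 0.376, while Mcm7 with Prim1 stood at 0.791 before and 0.788 after. Cdc45 with Atad2 stood at 0.767 after. The first principal component of the 35 genes held 48.5% of their variance over 50 libraries and 33.4% over 47, and the second held 7.58% and 8.33%. By role, the mean r over the 15 MCM pairs was 0.545 over 50 libraries and 0.372 over 47, and over the 15 pairs of polymerase and clamp genes it was 0.542 and 0.328. Mcm5 followed the other subunits least closely over 47 libraries, with r between 0.0970 (Mcm6) and 0.290 (Mcm4). Libraries 6 and 32, where Mcm5 was at 0, are among these 47. As rho over the 50 libraries its pairs with the other subunits ran from 0.267 (Mcm4) to 0.510 (Mcm3).

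Each gene was then compared with the mean of the other 34. An r of 0.5 or more was found for 29 of 35 genes over the 50 libraries, against 2.7% of the 11977 genes outside the set with the mean of all 35. The median r was 0.717 for the 35 genes and 0.0758 for the genes outside. Without the 3 libraries the counts were 18 of 35 and 0.543%. Atad2 had the highest r at 0.857 (0.759 without the 3), followed by Rpa2 at 0.841 (0.622), Rrm2 at 0.822 (0.497) and Mcm3 at 0.815 (0.472). Other genes had nearly the same r over 50 and over 47 libraries: 0.786 and 0.780 for Clspn, 0.742 and 0.740 for Mcm5, 0.723 and 0.736 for Chaf1b, 0.717 and 0.736 for Fen1, and 0.709 and 0.712 for Cdc6. Gmnn moved from 0.666 to 0.282, Nasp from 0.377 to 0.0269 and Cdca7 from 0.386 to -0.0347. Gins2 was the lowest over 50 libraries at 0.276 and stood at 0.443 over 47. Constant genes thus differed in this respect, with Pcna at 0.787, Slbp at 0.781 and Tyms at 0.479.

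**Figure D4:**
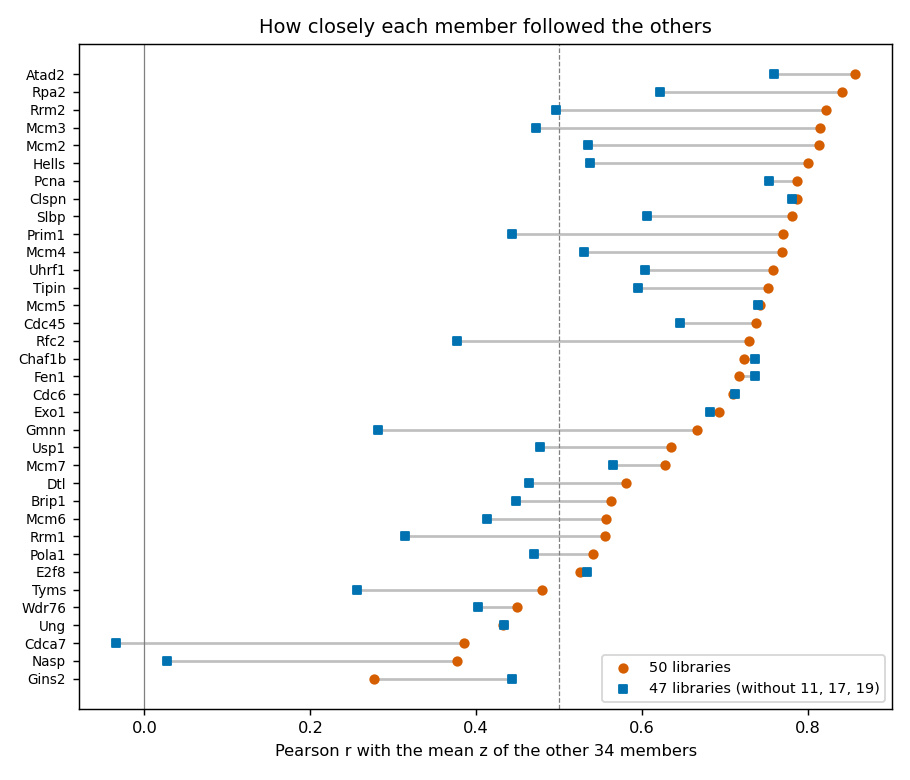
Pearson r of each gene with the mean z value of the other 34 genes, over 50 libraries (circles) and over the 47 without libraries 11, 17 and 19 (squares), with lines at 0 and 0.5. Atad2, Clspn and Pcna stay above 0.7 in both, whereas Cdca7 and Nasp drop to about 0 without the 3 libraries.

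The mean z value of the 35 genes had r = -0.0333 and rho = 0.0924 with log2 gene counts over the 50 libraries, and r = 0.403 and rho = 0.155 with the number of detected genes. Without the 3 libraries the latter were 0.206 and 0.0300. With the spike-in share, r was -0.462 and rho -0.175, and without the 3 libraries they were -0.281 and -0.0533. With detected genes regressed out, the mean r over pairs was 0.412. The part of the spike-in share in the shared movement was not tested.

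Replication genes were next set against 20 genes of mitosis, such as Top2a, Cdk1, Ccnb1 and Plk1, because both belong to dividing cells but to different phases. The means of the sets had r = 0.433 over the 50 libraries and rho = 0.0124. Without libraries 11, 17 and 19 r was -0.0701 with levels standardised again over the 47, and -0.0643 (rho -0.183) with the z values over 50. The positive r over 50 libraries thus rests on the 3 cells low in both.

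Single genes differed in how they stood to mitosis genes. Over the 50 libraries 33 of 35 had a positive r with the mitosis mean, and over the 47 others 15 did. By rho over the 50 libraries 18 of 35 were positive. The share of all genes with a positive r was not counted, so these counts have no background beside them. Gmnn and Rrm2 had the highest values over 47 libraries, at 0.350 and 0.335, followed by E2f8 at 0.280. Ung had the lowest at -0.620, then Mcm3 at -0.456, Dtl at -0.383 and Cdca7 at -0.306. Ung was on in 4 libraries, so its r rests on low values. Of the mitosis genes, Top2a, the topoisomerase that untangles chromosomes, had the highest r with the replication mean, at 0.686 (0.513 over 47). Ccnb1 and Cdc20 stood at 0.410 and 0.118 over 50 libraries, and at -0.249 and -0.386 over 47.

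**Figure D5:**
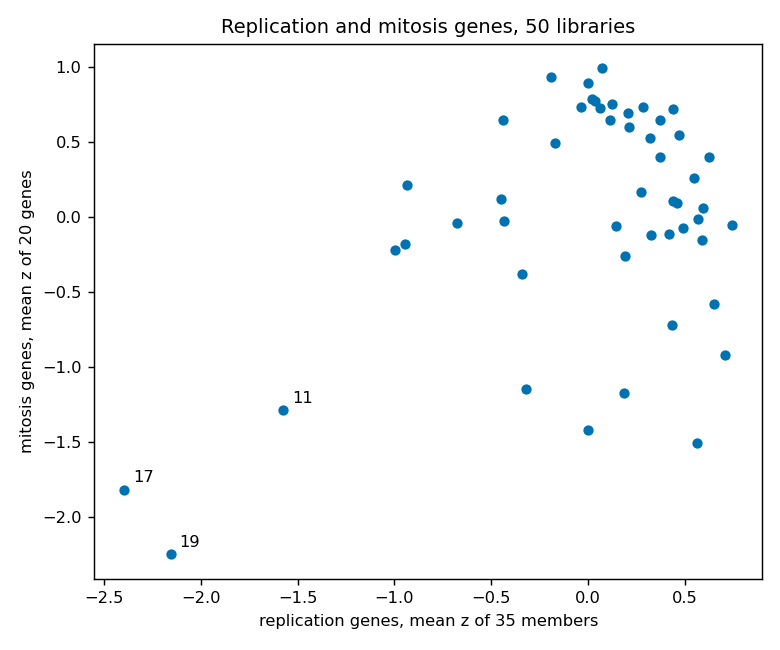
Mean z value of the 35 replication genes (x axis) against that of 20 mitosis genes (y axis), 1 point per library (50 libraries), with libraries 11, 17 and 19 numbered. The 3 numbered points lie low on both axes, and without them r of the plotted values is -0.0643.

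Other genes of replication followed in part. A list of 56 further genes, from origin recognition to nucleotide supply, was measured in full. Of these 30 split the cells, 4 were constant, 7 graded and 15 mixed. Of all 12012 genes 44.7% were split, 11.2% constant, 6.49% graded and 21.8% mixed. An r of 0.5 or more with the mean of the 35 genes was found for 26 of 56 (46.4%) over 50 libraries and 16 of 56 (28.6%) over 47, and the median r was 0.492 and 0.364. For all 11977 genes outside the 35 the shares were 2.7% and 0.543%. Highest were Rfc3, a clamp loader subunit, at 0.851, the histone chaperone gene Asf1b at 0.793 and the licensing factor Cdt1 at 0.769. Lowest were Rnaseh2a at 0.00917, Orc3 at 0.0521, Pole4 at 0.0701, Rnaseh2b at 0.0902 and Orc5 at 0.111. Over 47 libraries these were 0.110, 0.273, 0.0259, 0.297 and 0.190, and the lowest was Orc4 at -0.122, so this order rests in part on the 3 libraries. Rnaseh2a, Pole4, Rpa3 and Dut were the constant ones, with Dut at 8.79 ± 0.83 (SD, n = 50).

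The split genes of that list covered several roles. Cyclin E genes Ccne1 and Ccne2 were off in 17 and 18 libraries and on in 29 and 27. The polymerase epsilon genes Pole and Pole2 were each off in 14, and on in 30 and 34. E2f1, E2f2 and E2f7 were off in 15, 34 and 33. Cdt1 was off in 7 and on in 40, and Asf1b off in 6 and on in 43. Also split were Rfc5, Msh6, Gins1, Dck, Mcm10, Timeless, Dnmt1, Wdhd1, Dscc1, Topbp1, Casp8ap2, Pold1, Blm, Chtf18, Gins3, Dna2, Orc1, Orc5 and Rnaseh2b. The origin recognition genes Orc2, Orc3 and Orc4 were mixed, with r of 0.239, 0.0521 and 0.195 with the replication mean.

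Outside both lists, the genes most like the replication mean by Pearson r over 50 libraries were led by Fam111a at 0.853 (0.689 over 47). Tfdp1, the dimer partner of E2F factors, stood at 0.813 (0.606), Ppil1 at 0.812 (0.606) and Fignl1 at 0.801 (0.721). X2810417H13Rik, as the table spells it, stood at 0.782 (0.539). The tubulin genes Tubb5 and Tuba1b had 0.765 (0.451) and 0.747 (0.418). Cse1l (0.762), Phf5a (0.753), Cmah (0.75) and Taf12 (0.742) were also among the 15 highest, as were Rfc3, Asf1b and Cdt1. Phf5a and Taf12 fell to 0.279 and 0.263 over 47 libraries. The 5 lowest were Ccdc78 at -0.628, Prokr2 at -0.625, Calcoco2 at -0.582, Hoxb9 at -0.580 and X9430021M05Rik at -0.566. All 5 were mostly off, with mean levels of at most 0.44 on the log2(CPM + 1) scale, so these r values rest on few reads.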

How the data were processed

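Single-cell RNA sequencing libraries of 1 culture were read from 1 table. It holds estimated counts per gene symbol as the authors deposited them. The submitters' processing notes name kallisto and build mm9; kallisto's version and its transcript set are not given here. Estimated counts were used unrounded, but rounded for TMM factors (edgeR 4.0.16, R 4.3.3) and for thinning. The 65 ERCC rows stayed out of library sizes, and their share of all counts set the limit of 20%. Counts were scaled to CPM over the 19112 gene rows and transformed as log2(CPM + 1). Gene rows above 0 in at least 10 of the 50 libraries (12012) gave the background. Class limits were 1 and 10 CPM, 5 libraries, 95% and an SD of 1. The trend of spread was a lowess fit (fraction 0.3, statsmodels 0.14.6). Correlations used pandas 2.3.3. Intervals are exact Clopper-Pearson at 95% and cover the sampling of cells only. Classes and correlations were tested on simulated counts. No test between groups was run.

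All 35 replication genes are named. Outside them the text names the 15 genes of highest and the 5 of lowest r with their mean, from the list of other replication genes those that split the cells and the 5 of highest and lowest r, and marker genes; a few genes that this rule names are not reported here. Any further gene was picked with its values known. The genes and lists were chosen with earlier results of these data known. Alternatives covered libraries, pseudocounts, limits, thinning to 2000000 counts, TMM scaling, detected genes, blocks of 12 site numbers and the promoter window. No coordinate was taken between builds: promoter positions are GRCm38.p6.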

Additional observations from a re-analysis of the deposited data

Results flagged for a closer look

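Libraries outside the 50 held signal for the replication genes. The 12 libraries left out for their spike-in content had a median of 4 of the 35 genes on. In library 43, where spike-ins took 71.1% of the counts and 389192 gene counts remained, 34 of 35 genes were on and 35 were above 0. Library 8 had 15 on, and the others had 1 to 7. The limit that a count of 0 allows is 3 counts. Groups of over 10 libraries were not searched for single outlying libraries.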

How the results depend on the processing

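Over all 62 libraries 32 genes were split and 0 constant, and the r of the replication and mitosis means was 0.772. Of the other replication genes 55 were split and 49 had an r of 0.5 or more. How all genes stood by r over the 62 libraries was not counted, so the 0.772 and the 49 have no background beside them. With an SD limit of 0.75, 1 gene was constant (Tyms). Without libraries 11, 17 and 19, 8 genes were constant, 18 had an r of 0.5 or more with the others, 16 other replication genes had one with the mean, and the r of the replication and mitosis means changed sign to -0.0701. Over the 50 libraries the rho of these means was 0.0124 (-0.183 without the 3), and r without the 2 libraries farthest from the median (17 and 19) was 0.105. The cause was not tested. The number of split genes was 12 with an on limit of 5 CPM and after thinning to 2000000 counts, which kept all 50 libraries. It was 10 with an on limit of 20 CPM or an off limit of 0 counts. The SD limit plays no part in the split rule, so it cannot change this number. Of all genes 44.7% were split, but 23.5% with an on limit of 20 CPM and 71.4% over 62 libraries. The mean r over pairs was 0.36 as rho, 0.412 with detected genes regressed out, 0.457 within blocks of 12 site numbers and 0.321 without libraries 17 and 19. With TMM scaling every gene's mean level moved by less than its SD. The TMM factors ran only from 0.869 to 1.11, so a move as large as an SD was not possible. Depth limits the off calls: at the shallowest library 1 CPM is about 2 counts. No paired analysis was possible because the libraries form 1 group.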
